A study of Homo sapiens with 2 samples.

Results

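Shared-end peaks are the ChIP-seq peaks whose summit lay within 1 kb of an annotated start or end coordinate of at least 2 different protein-coding genes (RefSeq, GRCh38.p14). The deposited list held 1645 peaks, of which 1564 were on chromosomes 1 to 22 and X, and 216 of these were shared-end peaks. That was 13.8% of the 1564 (95% Wilson interval 12.2 to 15.6%, counting error only). They are set below against the 750 lone-end peaks, which had an end of 1 coding gene within 1 kb, and against the 598 peaks with no coding gene end that close. Lone refers to coding genes only, as 220 of the 750 (29.3%) also had an end of a noncoding gene within 1 kb. The study used F36P, a human erythroleukaemia cell line, in which ERG joined to an AM tag (AM-ERG) was overexpressed from the retroviral vector MSCV-PIG (genotype labelled ERG overexpression), so the tagged protein comes from the vector and not from the gene's own promoter. The control cells carried the empty vector (Vector, genotype labelled WT), and both were kept in puromycin (1 µg/ml) for 4 days. Chromatin was cut with micrococcal nuclease, and the same antibody, against the tag, was used for both. The labels give 1 library per group and the file is 1 list, so no value has a replicate error and AM-ERG could not be compared with Vector. The sources used here do not say which library gave the list. Fold enrichment, as deposited, compares the summit with the local background there. Whether that background was taken from the same library or from Vector is not stated, and what each fold and background value means depends on it.

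A bidirectional promoter is a short stretch of DNA from which 2 neighbouring genes on opposite strands are transcribed away from each other. Such promoters are common in the human genome, are often rich in CG dinucleotides and often serve broadly expressed genes of DNA replication, RNA processing and mitochondria. ERG belongs to the ETS family of transcription factors, whose members share a DNA-binding domain that recognises a GGAA core. Many ETS factors are known to favour the longer CCGGAAGT form, in particular at promoters without a TATA box.

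The DNA under these peaks is shown first, because the ETS core recurs in it. The windows are promoters from RefSeq (GRCh38.p14), from 250 bases before to 50 after a gene's start, written 5′ to 3′ along the gene. They belong to the 6 pairs of opposite-strand starts with the highest fold enrichment among those with both starts inside the peak. For each pair the window nearest to the summit among those analysed under the peak is given. At DNAH12/PDE12 this is the PDE12 window, although the start of DNAH12 was nearer to the summit, at 77 bp against 163 bp. Capitals mark CCGGAA or its reverse complement TTCCGG, and all other bases are in lower case.
SIRT6 window at the SIRT6/ANKRD24 peak, chr19:4182514-4182813, minus strand: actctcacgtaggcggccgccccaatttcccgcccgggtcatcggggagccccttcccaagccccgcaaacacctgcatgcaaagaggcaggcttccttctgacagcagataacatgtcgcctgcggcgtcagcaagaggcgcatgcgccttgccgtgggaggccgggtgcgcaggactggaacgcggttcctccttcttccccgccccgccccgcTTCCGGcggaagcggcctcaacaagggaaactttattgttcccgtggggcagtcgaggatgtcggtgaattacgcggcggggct
PDE12 window at the DNAH12/PDE12 peak, chr3:57556024-57556323, plus strand: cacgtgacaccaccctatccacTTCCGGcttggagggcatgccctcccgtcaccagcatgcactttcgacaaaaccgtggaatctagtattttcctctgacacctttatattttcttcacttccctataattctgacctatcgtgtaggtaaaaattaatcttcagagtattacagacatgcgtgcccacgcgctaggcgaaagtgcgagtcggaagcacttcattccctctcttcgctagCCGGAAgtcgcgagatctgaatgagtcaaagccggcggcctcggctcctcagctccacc
CCDC77 window at the KDM5A/CCDC77 peak, chr12:389097-389396, plus strand: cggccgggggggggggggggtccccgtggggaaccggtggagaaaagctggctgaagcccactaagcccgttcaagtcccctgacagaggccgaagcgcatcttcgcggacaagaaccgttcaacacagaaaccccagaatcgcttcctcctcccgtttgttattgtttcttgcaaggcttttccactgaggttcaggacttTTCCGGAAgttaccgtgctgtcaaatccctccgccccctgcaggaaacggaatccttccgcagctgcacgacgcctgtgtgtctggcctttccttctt
ZNF655 window at the FAM200A/ZNF655 peak, chr7:99558392-99558691, plus strand: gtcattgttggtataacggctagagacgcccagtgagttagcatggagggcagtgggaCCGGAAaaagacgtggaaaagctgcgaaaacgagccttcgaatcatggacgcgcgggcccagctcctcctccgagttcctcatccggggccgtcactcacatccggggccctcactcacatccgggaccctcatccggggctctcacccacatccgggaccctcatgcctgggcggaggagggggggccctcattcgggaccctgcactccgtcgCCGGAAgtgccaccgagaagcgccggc
SDHAF2 window at the CPSF7/SDHAF2 peak, chr11:61429874-61430173, plus strand: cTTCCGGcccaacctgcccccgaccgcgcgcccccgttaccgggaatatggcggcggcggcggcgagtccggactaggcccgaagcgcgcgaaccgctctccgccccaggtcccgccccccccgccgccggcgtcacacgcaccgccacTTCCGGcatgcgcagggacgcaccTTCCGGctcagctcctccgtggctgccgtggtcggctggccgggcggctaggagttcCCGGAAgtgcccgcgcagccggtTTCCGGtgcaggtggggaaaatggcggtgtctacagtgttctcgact
ARHGAP1 window at the ARHGAP1/ZNF408 peak, chr11:46700570-46700869, minus strand: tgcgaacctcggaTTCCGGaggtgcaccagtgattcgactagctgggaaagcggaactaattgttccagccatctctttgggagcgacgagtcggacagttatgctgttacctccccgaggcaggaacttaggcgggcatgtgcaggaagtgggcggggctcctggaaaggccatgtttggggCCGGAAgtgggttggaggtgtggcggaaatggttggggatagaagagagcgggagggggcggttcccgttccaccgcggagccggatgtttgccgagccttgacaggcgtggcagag
All 6 windows held the core. The SDHAF2 window had 5 matches, of which the nearest lay 7 bp from the summit. The SIRT6 window had 1 match, 105 bp from the summit. In the CCDC77 window the 2 matches overlap in the palindrome TTCCGGAA, 134 bp from the summit. The windows of PDE12, ZNF655 and ARHGAP1 had 2 matches each, the nearest at 63, 32 and 186 bp.

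How often a peak was listed where coding genes lie close together was compared over the whole annotation. Starts with the start of an opposite-strand gene within 1 kb are called divergent here, also where the 2 genes overlap at their 5′ ends. These divergent starts had a summit within 1 kb more often than starts with no other coding gene end that close. Of the 39948 ends of 19974 coding genes, 2.94% had a summit within 1 kb, and 6684 (16.7%) had an end of another coding gene within 1 kb. Among those close ends 445 had a peak, or 6.66% (6.08 to 7.28%), and among the other 33264 ends 731 did, or 2.20% (2.05 to 2.36%). The promoter table gave the strand of 15813 genes, which separates starts from stops. Of 2162 divergent starts 275 had a peak, or 12.7% (11.4 to 14.2%), against 574 of 12676 lone starts, or 4.53% (4.18 to 4.90%). The difference was 8.19 percentage points (95% Newcombe interval 6.80 to 9.70). Starts with another close end that was not a divergent start were between, at 77 of 975 or 7.90%, which is 4.82 points below the divergent ones (2.53 to 6.95). Stops with a close end had a peak in 1.66% of cases (39 of 2344) and lone stops in 0.0965% (13 of 13469). The 2 starts of a pair share their peaks, so these intervals are too narrow. Counted once per place, with divergent starts chained within 1 kb, 139 of 1065 places had a peak, or 13.1% (11.2 to 15.2%). A summit at either gene's promoter counts for the place, and often for both starts, while a lone start has only its own. The gap to the 4.53% of lone starts can therefore arise in part from this counting, and how much was not tested.

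**Figure D1:**
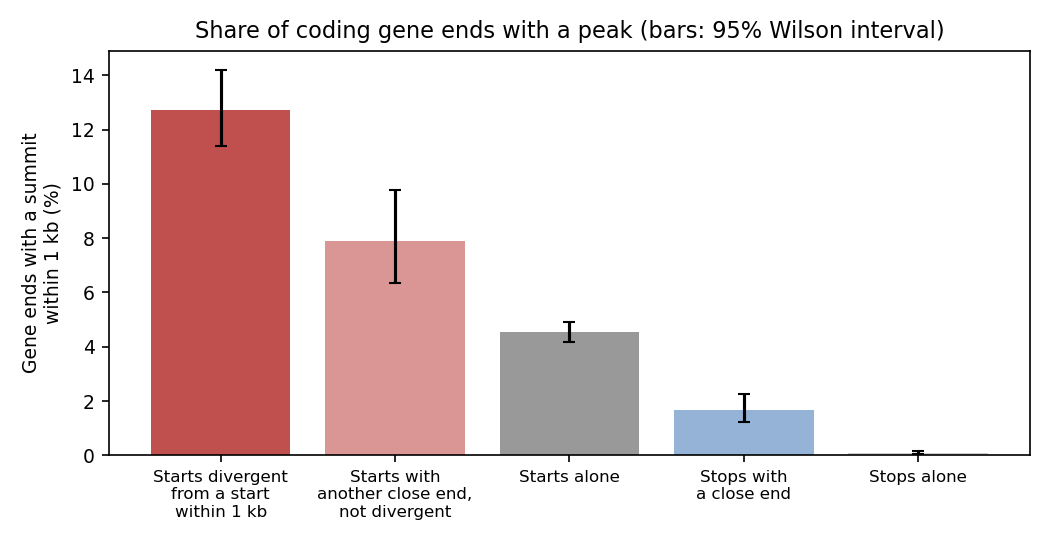
Percent of coding gene starts and stops (vertical axis) that have a peak summit within 1 kb, by what lies within 1 kb of them; bars are shares and lines their 95% Wilson intervals, counting error only. Divergent starts stand at 12.7%, lone starts at 4.53% and lone stops at 0.0965%.

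Most shared-end peaks lay at divergent starts. The arrangement could be read for 176 of the 216, and 134 of those (76.1%, 69.3 to 81.8%) were divergent. Another 29 (16.5%, 11.7 to 22.7%) were tandem, with the start of one gene beside the stop of another on the same strand. In 8 cases (4.55%) the starts of 2 genes on the same strand coincided or nearly did. Another 3 (1.70%) were convergent, with stops of opposite-strand genes, and in 2 (1.14%) a start lay beside the stop of an opposite-strand gene. For the other 40 the strand of a gene was not analysed here. Of the tandem peaks 23 of 29 had their summit nearer to the start than to the stop. A readthrough gene, which joins 2 neighbouring genes in 1 transcript, took part in 12 of the 216 peaks, and a gene known only by a LOC symbol in 9. Of the 216 peaks, 7 had ends of 3 genes, and 6 of these 7 included a readthrough gene. The strongest were ARPC4 with ARPC4-TTLL3 and TADA3 (fold 6.97), PLCB3 with BAD and GPR137 (5.62) and KYAT1 with KYAT1-SPOUT1 and LRRC8A (5.14). The others were NEDD8 with NEDD8-MDP1 and GMPR2 (4.87), HSPD1 with HSPE1 and HSPE1-MOB4 (4.37), PPAN with PPAN-P2RY11 and ANGPTL6 (4.35) and EEF1AKMT4 with EEF1AKMT4-ECE2 and ALG3 (3.10).

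Within the divergent pairs the 2 nearest ends were a median of 206.5 bp apart (quartiles 105 and 403), and in 115 of 134 (85.8%) they were at most 500 bp apart. In 98 pairs the genes left a gap and in 35 they overlapped at their 5′ ends. All positions here take a gene's outermost annotated coordinate as its start, although RefSeq promoters can start further in. CHPF, for example, has such a start 21 bp from its summit, against 691 bp for the outermost coordinate, and on the other side. How far such starts would change the distances and shares below was not tested. The summit was usually beside the 2 nearest ends and not between them. It lay between them in 33 of 134 pairs (24.6%, 18.1 to 32.6%), which include overlapping pairs. The summit was inside neither of the 2 genes in 16 (11.9%) and inside both in 18 (13.4%). It was inside exactly 1 of the 2 genes in 100 (74.6%, 66.6 to 81.2%). It was downstream of the nearest start in 100 of 134, against 399 of 591 lone-end peaks with a start (67.5%, 63.6 to 71.2%), so the intervals of the 2 shares overlap. The nearest end of the divergent pairs was a median of 152.5 bp from the summit and the second a median of 320.5 bp. Peaks were a median of 401 bp wide, and 33 (24.6%) contained at least 2 of the ends.

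**Figure D2:**
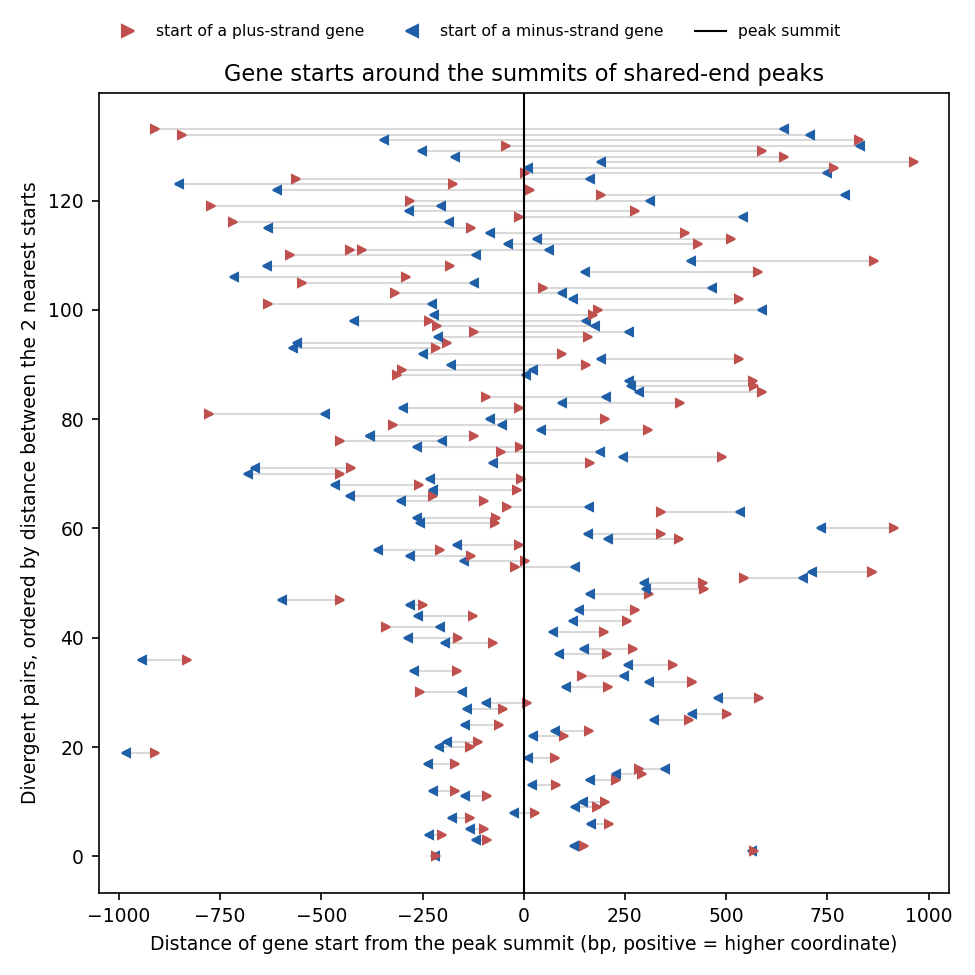
Gene starts of the 134 divergent pairs along the horizontal axis, as distance in bp from the peak summit at 0; each row is a peak, ordered by the distance between the 2 nearest starts, right-pointing red marks are starts of plus-strand genes and left-pointing blue marks those of minus-strand genes. The summit lies between the 2 nearest starts, taken as each gene's outermost coordinate, in 33 rows and beside them in the others.

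The highest fold enrichment among shared-end peaks was 15.3, at the neighbouring ends of DNAI4, an axonemal dynein intermediate chain gene, and MIER1, which encodes a corepressor that recruits histone deacetylases. This peak (chromosome 1, 66924960 to 66925282) had 47 fragments at its summit on a local background of 2.14, with its summit 154 bp inside MIER1. Next came the shared start of ISY1, a splicing factor gene, and its readthrough ISY1-RAB43 (chromosome 3, 129161083 to 129161528), with a fold of 12.6 and 38 fragments on a background of 2.11. The peak at SIRT6, a chromatin deacylase gene, and ANKRD24 (chromosome 19, 4182111 to 4182691) had a fold of 12.3. It had the most fragments at its summit of all 216, 63, and the highest significance, with a −log10 q of 44.8. The peak of UFD1, which encodes a partner of the segregase VCP, and CDC45, a component of the replicative helicase (chromosome 22, 19478970 to 19479435), had a fold of 11.7 and 42 fragments. KIF9, a kinesin gene of motile cilia, and KLHL18, a substrate adaptor of a ubiquitin ligase (chromosome 3, 47282404 to 47282886), followed at 10.8 and 49 fragments. The same 5 peaks were also the 5 of highest significance.

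From the sixth to the fifteenth by fold the values fell from 9.25 to 7.76. The gene of the cohesin subunit SMC1A shared the sixth with RIBC1 on chromosome X, with 26 fragments. DCAF15, a substrate receptor of a ubiquitin ligase, shared a peak of 9.06 fold with PODNL1, where the genes overlapped by 874 bp. A peak of 8.90 fold lay 15 bp from the start of MON1B, a vesicle fusion gene, beside LOC124903725. A peak of 8.65 fold lay 128 bp from TMEM223 and 252 bp from the stop of NXF1, the mRNA export receptor gene. The axonemal dynein gene DNAH12 and PDE12, a phosphodiesterase gene, had 8.41 fold. SHOC2, a scaffold gene of RAS and RAF signalling, and BBIP1, a BBSome gene, had starts only 4 bp apart and a peak of 8.22 fold, with the summit 565 bp from the nearer. PSME4, a proteasome activator gene, and ACYP2 had 8.15 fold. SUPT4H1, a transcription elongation factor gene, stood beside the stop of RNF43 with 8.09 fold, the only pair among the 15 read as tandem. CDC42SE1 and MLLT11 had 8.02 fold, and YARS1, the tyrosyl-tRNA synthetase gene, and S100PBP had 7.76. The widest peak, 1184 bp, lay at TADA3, ARPC4 and the readthrough ARPC4-TTLL3, with a fold of 6.97. The lowest fold was 2.61, at WDPCP and UGP2.

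**Figure D3:**
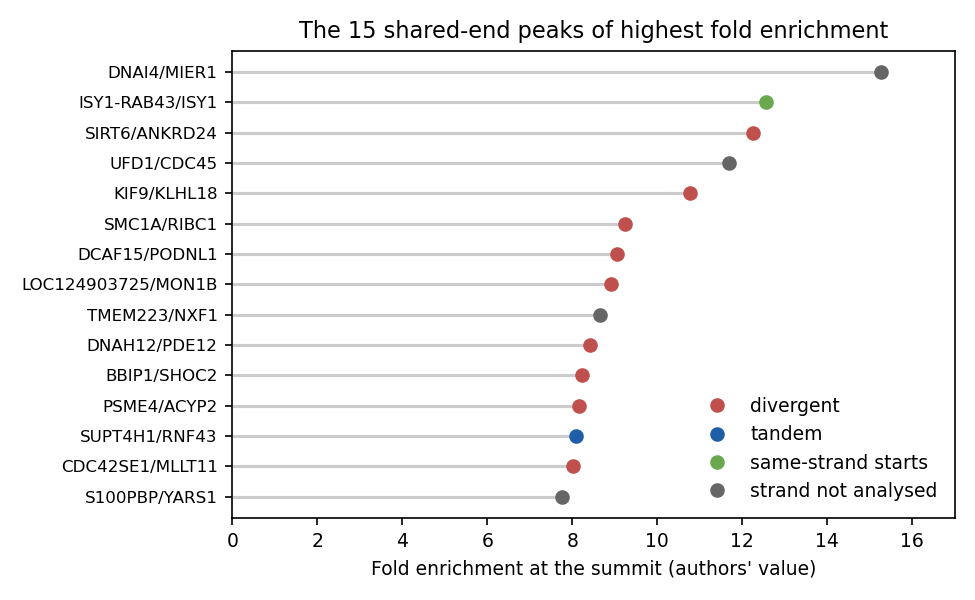
Fold enrichment at the summit (horizontal axis, the authors' value) of the 15 shared-end peaks with the highest fold, named by their genes on the vertical axis and coloured by arrangement. Values run from 15.3 at DNAI4 and MIER1 to 7.76 at S100PBP and YARS1, and 5 of the 15 exceed 10.

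In strength the shared-end peaks overlapped lone-end peaks over most of their range. Their median fold enrichment was 4.79 (quartiles 3.98 and 5.86), against 4.90 (4.05 and 6.16) for lone-end peaks and 4.35 (3.35 and 5.24) for peaks away from coding gene ends. The 95% interval of the shared-end median, from order statistics, was 4.59 to 5.14 and contains the lone-end median. Among the upper 50% of peaks by −log10 q, the shared-end median fold minus the lone-end median was −0.329. The limits −0.558 and −0.0585 come from the shared-end median alone, with the lone-end median held fixed. They leave out the error of the lone-end median, so they are too narrow for the difference. The median local background was 3.52 fragments at shared-end and 3.45 at lone-end peaks. A background over 2 times the median of all peaks was found under 12 of 216 shared-end peaks (5.56%), 35 of 750 lone-end peaks (4.67%) and 161 of 598 peaks away from coding ends (26.9%). Among shared-end peaks the divergent ones had a median fold of 5.03 and the tandem ones 4.36. By distance between starts, the median fold of divergent pairs was 5.41 at up to 200 bp (64 peaks), 4.87 at 201 to 500 bp (51) and 4.42 beyond (19). Their quartiles overlapped, from 4.33 to 6.21, 4.05 to 6.02 and 4.04 to 4.91.

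**Figure D4:**
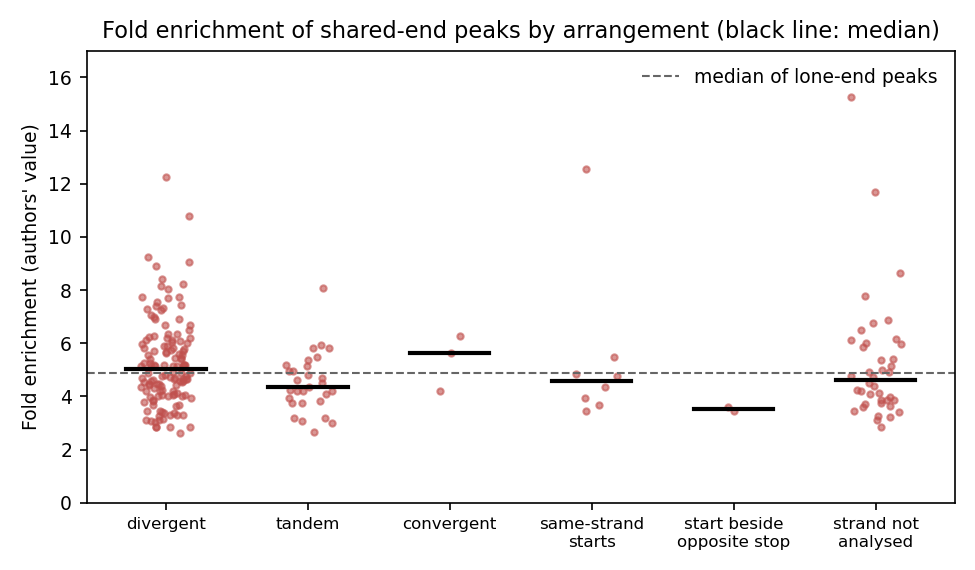
Fold enrichment (vertical axis, the authors' value) of each of the 216 shared-end peaks by arrangement of the genes; points are peaks, black lines medians and the dashed line the lone-end median of 4.90. The divergent and tandem medians, 5.03 and 4.36, lie on either side of the dashed line, and the divergent and tandem points overlap.

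The ETS core was then counted in the promoter windows. Most windows under shared-end peaks held it, more often than windows without a peak. With 1 window per peak, its difference from lone-end peaks had an interval that includes 0. Both strands were searched for CCGGAA. It was in 22.9% of the 15812 coding promoter windows (1 per gene), and in 169 of the 239 windows that overlapped a shared-end peak, or 70.7% (64.7 to 76.1%). Windows under lone-end peaks had it in 284 of 451 cases (63.0%, 58.4 to 67.3%), and windows with no summit within 1 kb of their start in 3049 of 14799 (20.6%, 20.0 to 21.3%). At least 2 matches were found in 41.8%, 29.0% and 4.91% of these 3 kinds of window. Of the 162 shared-end peaks with a window, 76 had 2 or more, and the windows of a pair can overlap and hold the same matches. The interval for the 239 windows is therefore too narrow, and the share with at least 2 matches was not computed with 1 window per peak. By peak, 117 of the 162 shared-end peaks with a window (72.2%) had a match in at least 1, and their median fold was 5.16, against 4.56 for the other 45. IDI1, a gene of isoprenoid synthesis, and KIF9 were among the genes with 4 matches, and only SDHAF2 had 5.

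Divergent promoters held the core more often even without a peak, in 653 of 1878 windows (34.8%, 32.7 to 37.0%), against 2396 of 12921 other windows without a peak (18.5%, 17.9 to 19.2%). The core and the arrangement were therefore set against each other. Of divergent starts with the core 18.6% (16.0 to 21.4%) were under a peak, and of those without it 5.11% (4.04 to 6.45%). Of other starts with the core 12.4% (11.2 to 13.7%) were under a peak, and without it 1.94% (1.69 to 2.22%). Divergent starts were under a peak more often than other starts both with the core and without it. The core was counted in a gene's own window only, while its peak may lie at a partner whose window holds the core. These shares therefore do not separate the arrangement from the core. The base composition differed too. The median GC content was 67% under shared-end peaks, 67.3% under lone-end peaks and 62.3% without a peak. Among windows of 60 to 70% GC the core was in 74.3% (81 of 109), 67.9% (131 of 193) and 27.6% (1362 of 4935).

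**Figure D5:**
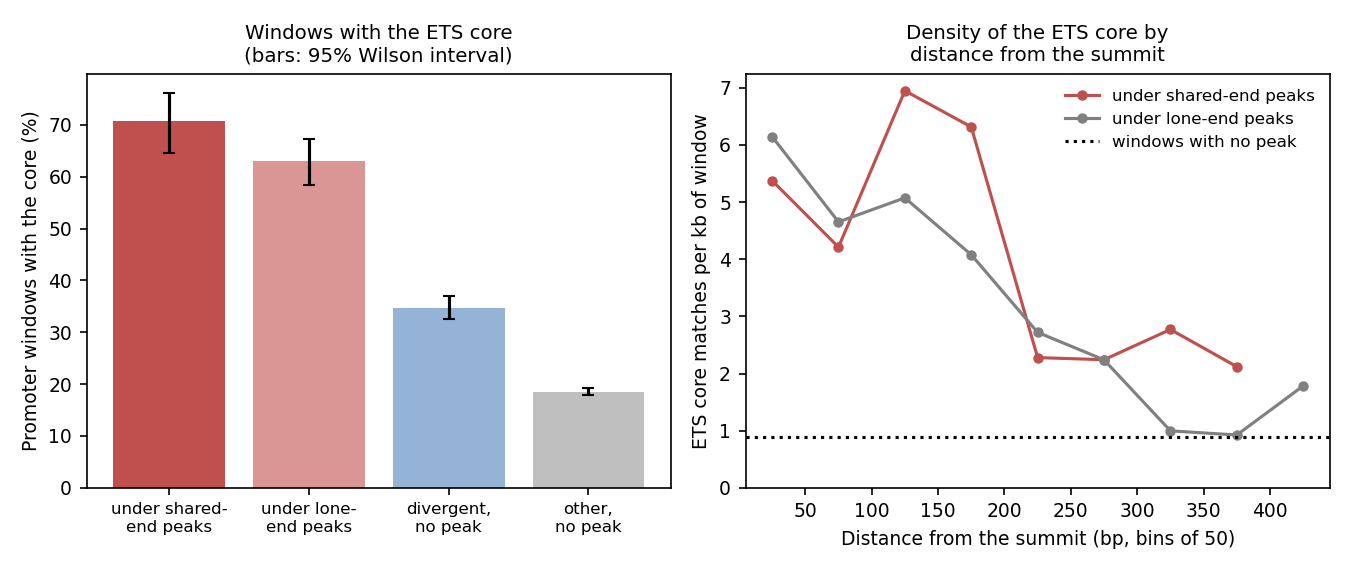
Left, percent of promoter windows that hold the ETS core on either strand, with 95% Wilson intervals; right, matches per kb of window sequence (vertical axis) by distance from the summit in bins of 50 bp (horizontal axis). The 4 bars stand at 70.7%, 63.0%, 34.8% and 18.5%, and the shared-end line falls from 6.31 matches per kb at 150 to 199 bp to 2.28 at 200 to 249 bp, above the 0.897 of windows without a peak.

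Close to the summits of shared-end peaks the core had a density of 5.38 matches per kb of window sequence within 50 bp, 6.95 at 100 to 149 bp and 2.24 at 250 to 299 bp. The densities of lone-end peaks at these distances were 6.15, 5.07 and 2.24. Windows without a peak had 0.897. The 2 windows of a pair can overlap, so some matches were counted in both. The longer form CCGGAAGT, which contains the core, was in 82 of 239 windows under shared-end peaks (34.3%) and in 109 of 451 under lone-end peaks (24.2%), a difference of 10.1 points (3.06 to 17.4), where all promoters had it in 6.23%. With 1 window per peak, the nearest to the summit, the difference was 12.2 points (4.03 to 20.7). For the core itself the difference was 7.74 points (0.292 to 14.8), and with 1 window per peak 7.93 (−0.709 to 15.9), an interval that includes 0. The intervals were not adjusted for the 15 motifs compared.

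The other motifs were set beside all promoters and the nearest groups. GGGCGG, the GC box, was in 76.2% of windows under shared-end peaks and 58.5% of all promoters, but also in 76.5% of windows under lone-end peaks (difference −0.346 points, −7.21 to 6.11). AAGATGGC, a YY1 sequence, was in 7.53% (4.82 to 11.6%) and in 3.89% of all promoters, but also in 7.24% of divergent windows without a peak, and its difference from lone-end peaks was 2.43 points (−1.22 to 6.82). AGGAAG, another sequence with the GGAA core, was in 33.5% of windows under shared-end peaks and in 33.4% of all promoters. Under lone-end peaks AGGAAG was in 39.5% of windows (35.1 to 44.0%), a difference of −6.00 points (−13.3 to 1.61). For shared-end windows and all promoters, in this order, GGAAGGAA was in 3.77% and 3.66%. The GATA sequences were in 4.18% and 7.59% (AGATAA) and in 1.26% and 5.40% (TGATAA). The RUNX sequence TGTGGT was in 8.37% and 11.0%. The E-box CACGTG (10.5% and 8.80%), the cAMP response element TGACGTCA (3.77% and 2.57%) and the palindromic NRF1 motif (9.21% and 8.58%) had intervals that included the share of all promoters. TATAAA was in 2.51% and 9.68%, and CCAAT in 21.3% and 36.3%. GGAAG, which lies within several of these sequences, was in 92.1% and 74.0%. For 5 of the motifs windows under lone-end peaks were similar, with AGATAA in 3.77%, TGATAA in 1.77%, TGTGGT in 8.87%, TATAAA in 5.32% and GGAAG in 90.0%. The differences of these 5 from lone-end peaks had intervals that include 0. CCAAT was in 29.9% of windows under lone-end peaks, a difference of −8.59 points (−15.0 to −1.67). The windows of a pair can overlap, so this interval is too narrow, and the difference was not computed with 1 window per peak. Divergent windows without a peak had AGATAA in 4.05%, TGATAA in 3.09% and TATAAA in 4.37%. A match is a description of the letters and does not show that a factor binds there.

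The genes at shared-end peaks were counted in 20 lists of gene families, which were put together by hand and do not hold every gene of a function. In all, 434 coding genes had an end at one of these peaks, which is 2.17% of 19974, and 5.86% had an end at any peak. The 1714 distinct genes of the lists had 63 at shared-end peaks, or 3.68% (2.88 to 4.68%), and 191 (11.1%) at any peak. Both genes of a pair came from the same list at only 3 of the 216 peaks, namely H2BC12 with H2AC12, ZNF425 with ZNF398 and ZNF646 with ZNF668. At HSPD1 and HSPE1, the chaperonin and co-chaperonin of mitochondria, the readthrough HSPE1-MOB4 was a further gene. That peak had a fold of 4.37 with the nearest outermost gene coordinate 310 bp from the summit.

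Mitochondrial genes were at several shared-end peaks. The mitochondrial ribosomal protein list had 5 of 77 genes there (6.49%, 2.81 to 14.3%), of 6 at any peak. They were MRPS18C with the helicase gene HELQ (fold 5.82), MRPL51 with the condensin gene NCAPD2 (4.20), MRPL40 with the histone chaperone gene HIRA (3.67), MRPL34 and MRPS34. The respiratory chain and ATP synthase list had 4 of 92, of 5 at any peak: NDUFS3 with KBTBD4 (5.91), NDUFB9 with TATDN1 (4.52), ATP5ME with MYL5 (3.64) and NDUFA13 with TSSK6 (3.45). Import and folding genes had 4 of 33 (12.1%, 4.82 to 27.3%), which were TIMM23B with PARG (5.41), HSPD1, HSPE1 and TOMM6 (3.06). Against the 2.17% of all coding genes, the interval lay above for 5 of the 20 lists, the mitochondrial ribosomal, import, splicing, cell cycle and erythropoietin lists. At peaks of any kind these lists had 7.79%, 18.2%, 19.7%, 13.2% and 32.3% of their genes, against 5.86% of all coding genes, so for the last 4 the share was raised at peaks of any kind. Lists of this size rest on few genes, and no list was tested.

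Genes of RNA and protein turnover followed. Splicing genes had 5 of 71 (7.04%, 3.05 to 15.4%): U2AF2 (fold 5.83, its stop beside the start of EPN1), LSM1 (5.14), LSM5 (4.45), SNRPD3 (4.05) and SF3A1 (2.87). Cytosolic ribosomal protein genes had 3 of 86, RPS27 with RAB13 (6.70), RPL4 with ZWILCH (6.69) and RPL6 with PTPN11 (3.23), of 14 at any peak. Ubiquitin enzyme genes had 4 of 99, UBE2B (6.75), UBE3B (6.07), UBE2M (5.82, by its stop) and USP15 (5.80), and the proteasome list 2 of 49, PSME4 and PSMD13 (4.02). The tRNA synthetase genes were YARS1 and EARS2 (6.04) of 35, and the transcription machinery had GTF2H1 (7.40), a TFIIH gene, and POLR1B (3.76) of 113. Translation factors had EIF2A (4.65), EIF3L (3.10) and, by its symbol, the methyltransferase gene EEF1AKMT4 (3.10) of 67. Zinc finger genes had 12 of 555 (2.16%), led by ZNF655 (7.74), ZNF408 (7.26), ZNF473 (4.72) and the ZNF425 and ZNF398 pair (4.65), and histone genes 3 of 92, H2BC12 with H2AC12 (6.11) and H4C16 (4.08).

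From the list of cell cycle and replication genes, those at shared-end peaks were CDC45, MCM7 with AP4M1 (fold 4.12), MCM4 with PRKDC (3.88) and, for the G1 inhibitor p18, CDKN2C with FAF1 (4.68), which made 4 of 68 (5.88%, 2.31 to 14.2%), of 9 at any peak. MCM8, which the list does not hold, was at a peak with TRMT6 (6.24). The DNA repair list had DDB1 with TKFC (5.71) and PRKDC, 2 of 64. The list of histone deacetylases, corepressors and other repressive chromatin genes had 3 of 58, MIER1, SIRT6 and SIRT3, the last with PSMD13 at 4.02 fold. Chromatin genes outside it were also at shared-end peaks, picked after their values were seen and without a share. Among them were the demethylase gene KDM5A (7.74) and the methyltransferase genes KMT2D (5.94, by its stop), NSD3 (4.21) and KMT2B (3.83). The summit near KMT2B was 596 bp from its start and 369 bp from the stop of ZBTB32. The deubiquitinase gene BAP1 (3.85) had its end 687 bp from a summit that was 35 bp from PHF7. Repair genes outside the repair list included DCLRE1A (5.97), RAD1 (5.17), GEN1 (5.16), DCLRE1C (4.05) and APTX (3.37).

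The lists of blood genes had shares at shared-end peaks whose intervals held, or in 1 case lay above, the 2.17% of all coding genes. Of 47 erythroid genes LDB1, a cofactor that joins GATA1 and TAL1 complexes, was (2.13%), with PPRC1 at a fold of 4.66 and 14 fragments, the summit being 708 bp from LDB1. None of the 35 ETS family and partner genes was (upper Wilson limit 9.89%), although 9 had an end at a lone-end peak. None of the 25 endothelial and megakaryocyte genes was (upper limit 13.3%). With lists of this size neither 0 can be told apart from the 2.17% of all coding genes. Erythropoietin, JAK and STAT genes had 3 of 31 (9.68%, 3.35 to 24.9%), of 10 at any peak. They were CISH, an inhibitor of cytokine receptor signalling, with MAPKAPK3 (fold 6.20), PTPN11, the SHP-2 phosphatase gene, with RPL6, and SHC1, an adaptor gene, with CKS1B (3.14). In the BCL2 family only BAD was, 1 of 22, at 2 peaks between or beside its stop and that of PLCB3, with folds of 5.62 and 4.20, the stronger also near the start of GPR137.

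Of the genes inspected whatever their values, EPOR and LYL1 had summits 59 and 70 bp from an end but at lone-end peaks, and the summit nearest to an end of ERG was 9351 bp away. HDAC7, the deacetylase of the series title, GATA1, BRCA1 and TIMM10 had no summit closer to an end than 284.6, 285.7, 71.6 and 2138 kb. The limit of 1 kb divided close neighbours. Just inside it were the pairs of ERAP1 with LOC124901030 (fold 4.79), PRKDC with MCM4 and METTL23 with JMJD6 (4.91), each with its second gene 984 bp from the summit. Just outside were LIMD2 beside STRADA (1006 bp, fold 3.20), CARS2 beside ING1 (1014 bp, 3.77) and RELB beside CLASRP (1036 bp, 5.49). Chromosome 19, dense in genes, held 22 of the 216 shared-end peaks (10.2%) and 76 of the 750 lone-end peaks (10.1%).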

How the data were processed

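Per the labels' protocols, an AM-tag antibody was used on F36P chromatin from AM-ERG and empty-vector cells, 1 library each. Per the submitters' processing notes, Bowtie2, MACS2 and deepTools were used with build hg38, with no version or setting stated in these sources. The deposited narrow peak list has no header. The authors' values per peak are a score (not used here), the fold enrichment (a ratio to local background), −log10 p, −log10 q and the summit's offset. The largest q was 0.0474. Depth per library is unknown. The fragments and background at each summit were recovered from fold and p, with a largest error of 0.000834 in log10 p.

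Genes, starts and promoter windows came from RefSeq tables (GRCh38.p14). The promoter table matched 15813 of 19974 coding genes and 382 of the 434 genes at shared-end peaks. For each gene the window nearest to a summit within 1 kb was used, otherwise the one at the gene's end, which gave 15812 windows on the chromosomes used. A window under a peak overlapped it. Shares have Wilson intervals and differences of shares Newcombe intervals, at 95%, for counting error only, and no test was made. The peaks and lists were chosen with earlier results of these data known. Named genes are those of the 15 peaks of highest fold, the 5 of highest significance, the widest peak, up to 4 by fold per list, the 3 on each side of the 1 kb limit and 12 fixed genes. IDI1 and the remaining names were chosen after their values were seen. The computations, tested on simulated data, ran in Python 3.11.15 with SciPy 1.17.1, numpy 2.4.6 and pandas 2.3.3, and figures in matplotlib 3.10.9.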

Additional observations from a re-analysis of the deposited data

How the results depend on the processing

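No paired analysis was possible because AM-ERG and Vector have only 1 library apiece, in 1 list. Settings without raised background (except for the median fold), without readthrough and LOC symbols, with 1 window per peak, and every setting for lists, divergent starts and lone starts were chosen after seeing the data. The number of shared-end peaks was 132 within 500 bp, 47 when the peak itself had to cover both ends, 465 with all annotated genes and 111 in the upper 50% by −log10 q. The share of gene-end peaks that were shared, 22.4%, was 15.7% within 500 bp and 27.8% within 2 kb. The divergent share was 82.6% in the upper 50% and 69.1% within 2 kb. The median fold of shared-end minus lone-end peaks, −0.11, was −0.329 in the upper 50%. In that setting 3.52% of close ends, 7.26% of divergent and 2.31% of lone starts had a peak, and within 500 bp 5.99%, 10.8% and 4.00%. Windows with the ETS core were 79.2% in the upper 50%; with CCGGAAGT they were 34.3% and with GGAAG 92.1%. List genes at shared-end peaks were 1.81% in the upper 50%, 2.10% within 500 bp and 4.84% within 2 kb. Fewer peaks or other windows change counts by construction; the cause of the other changes was not tested. Of the 15 peaks of highest fold 10 were kept within 500 bp.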

Other observations

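At divergent starts the CCAAT box went the other way from the ETS core. CCAAT was in 50 of 215 windows of divergent starts under a peak (23.3%, Wilson interval 18.1 to 29.3%) and in 771 of 1878 divergent windows without one (41.1%, 38.8 to 43.3%). At other starts it was in 154 of 547 windows under a peak (28.2%, 24.5 to 32.1%) and in 4646 of 12921 without one (35.1 to 36.8%). The palindromic NRF1 motif was in 9.77% of divergent windows under a peak (6.48 to 14.5%) and in 14.7% of those without (13.2 to 16.4%), and these intervals overlap. At other starts it was in 7.68% under a peak (5.73 to 10.2%) and in 7.64% without one (7.19 to 8.11%). Windows of a divergent pair can overlap, so the intervals of divergent windows are too narrow. The median GC content of the divergent windows was 67% with and 64.3% without a peak, and its part in these differences was not tested.

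Genes of cilia and axonemes were counted by symbol family, a grouping chosen after DNAI4 and DNAH12 were seen among the strongest peaks, so the count supports nothing. Among 119 coding genes with symbols of the axonemal dynein, CFAP, IFT, ODAD, BBS, RSPH, DRC and TEKT families, 7 were at shared-end peaks (5.88%, against 2.17% of all coding genes) and 9 at any peak (7.56%, against 5.86%). Divergent starts were 25 of 104 in these families (24.0%), against 13.7% of all starts. The 7 were DNAI4 with MIER1 (fold 15.3), DNAH12 with PDE12 (8.41), CFAP58 with ITPRIP (6.92), IFT80 with the condensin gene SMC4 (5.24), IFT74 with PLAA (4.79), CFAP298 with its readthrough (4.79) and ODAD3 with PRKCSH (3.86). Which gene of a pair responds to AM-ERG cannot be read from a peak list.

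In all, 5 genes were at more than 1 shared-end peak. JMJD6 and METTL23 shared 2 summits 855 bp apart (folds 4.91 and 3.62), PLCB3 and BAD shared 2 that were 719 bp apart, and OGFOD2 had 1 at either end, 5582 bp apart (5.65 and 4.49).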
